A study of Mus musculus with 35 samples.

Results

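Acetate was compared with its absence over every background of the series, with wild-type (WT) and Shank3-deficient (KO) mice in 1 mean. The tissue was the medial prefrontal cortex (mPFC). The comparison used all 35 libraries of the series, chosen by their treatment label and by no measured value. Libraries given acetate numbered 18. They were WT_acetate and KO_acetate with 5 each, and WT_abx_and_acetate and KO_abx_and_acetate with 4 each, where abx stands for antibiotics. Libraries not given acetate numbered 17. They were WT_control (n = 6) and KO_control (n = 4), which had water, and WT_abx (n = 4) and KO_abx (n = 3), which had antibiotics. The effect of acetate is the mean, with equal weights, of 4 differences: WT_acetate minus WT_control, KO_acetate minus KO_control, WT_abx_and_acetate minus WT_abx, and KO_abx_and_acetate minus KO_abx. The 4 pairs share no library. The strain, the ages, the part of Shank3 that is deleted, and the dose, route and duration of each treatment are not stated in the sources used here.

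Acetate is a short-chain fatty acid that gut bacteria release and that crosses from blood into the brain. Cells join it to coenzyme A with the acetyl-CoA synthetases Acss1 (mitochondria) and Acss2 (cytosol and nucleus). The acetyl-CoA feeds the citric acid cycle, the synthesis of cholesterol and fatty acids, and the acetylation of histones, which histone acetyltransferases write, bromodomain proteins bind and histone deacetylases remove. Antibiotics deplete the bacteria that make acetate.

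Values are log2 CPM, that is, counts relative to library size on a log2 scale, for 14870 genes, and a difference of 1 on this scale is a doubling. Depth over these genes was 12.8 to 25 M (mega) reads in acetate libraries (median 20.9) and 19.2 to 28 M in the others (median 22.4). The mean RNA integrity number was 9.07 with acetate and 9.05 without. By label, the acetate libraries were 11 males and 7 females and the others 9 males and 8 females. Shank3, the targeted gene, was low in every KO library. It lay between the KO and WT levels in the libraries labelled WT_acetate 2, WT_acetate 5 and WT_abx 4, at 7.8, 8.08 and 7.48 log2 CPM, so results were also computed over the 32 other libraries. Those values are given for the main results, and for some lists and single pairs, chiefly where a direction turned or a value moved by over 1.5 times. A list given without such a value may also have moved. Y-linked genes went against the labelled sex in the libraries labelled WT_acetate 2, WT_acetate 4, WT_acetate 5 and WT_abx 3. Nothing in the labels says that the libraries are from different animals. A p-value here therefore measures no more than the spread among libraries. The tissue is bulk, so fewer cells of a type and less RNA per cell cannot be told apart.

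Averaged over backgrounds, acetate moved 10 genes past the threshold, a share of 0.0672% of the 14870 genes. The test was limma, with Benjamini-Hochberg adjustment over all genes and a threshold of 0.05. Of these genes, 4 were higher with acetate (0.0269%) and 6 were lower (0.0403%), and all 10 had an adjusted p = 0.0431. Changes were small. Over 14019 genes with a mean of at least 0 log2 CPM, the median size of the difference was 0.062, 131 genes differed by more than 0.5 and 3 by more than 1. At an unadjusted p under 0.05 there were 2694 genes, or 18.1% (1332 higher, 8.96%, and 1362 lower, 9.16%), where evenly spread p-values would put 744. Without the 3 libraries, 1 gene passed (0.00672%), Klhl23, and 2170 had an unadjusted p under 0.05 (14.6%: 7.02% higher, 7.57% lower).

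The count of 10 rests on single libraries. Leaving out each of the 35 in turn gave 0 to 168 genes, and 0 in 20 of the 35 fits. The 168 came without WT_abx_and_acetate 4, the shallowest library. No called gene turned its direction in any fit.

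Among the 4 higher genes, Exosc1 had the largest number of acetate libraries outside the other range. Exosc1 encodes a subunit of the RNA exosome, the complex that degrades and trims RNA from its 3′ end, and lies on chromosome 19 from 41922292 to 41933423 (minus strand; positions are those of GENCODE vM21 on GRCm38, matched by symbol). It ran from 3.10 to 3.65 log2 CPM with acetate (median 3.40) and from 3.01 to 3.37 without (median 3.20). In 13 of the 18 acetate libraries it lay above every library without acetate. In WT it was at 3.59, 3.42, 3.39, 3.65 and 3.63 in WT_acetate and at 3.01 to 3.22 (median 3.10) in WT_control, with no overlap. In WT_abx_and_acetate it was at 3.27, 3.39, 3.35 and 3.21, against 3.20, 3.28, 3.24 and 3.22 in WT_abx, so these groups overlapped. The mean difference was 0.20 ± 0.040 (SE), 1.15-fold. Exosc1 was also the 1 gene that passed within a single pair (0.00672% of genes), at 0.41 ± 0.072 in WT without antibiotics (limma, adjusted p = 0.0482).

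Klhl23, a member of the kelch-like protein family, lies on chromosome 2 from 69821944 to 69836651 (plus strand). It was at 6.25, 6.04, 6.15, 6.31 and 6.02 log2 CPM in WT_acetate and at 5.76 to 5.97 (median 5.90) in WT_control. It was at 6.03, 5.99, 6.12, 6.07 and 6.08 in KO_acetate, against 5.87, 5.90, 5.77 and 5.92 in KO_control. In both pairs every acetate library was above every control library. WT_abx_and_acetate, at 6.19, 6.21, 6.26 and 6.24, was also above WT_abx, at 5.93, 6.02, 6.01 and 5.89. The pair of KO groups on antibiotics went the other way, with 5.91, 6.05, 6.10 and 6.05 in KO_abx_and_acetate and 6.22, 6.16 and 5.97 in KO_abx, and overlapped. The mean difference was 0.16 ± 0.031, 1.12-fold. Over 32 libraries it was 0.18 ± 0.030 (limma, adjusted p = 0.0375). The acetate difference in KO minus that in WT was -0.21 for Klhl23 (unadjusted p = 0.00217), which did not pass over all genes.

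Pfdn6 encodes a subunit of prefoldin, which hands unfolded actin and tubulin to a chaperonin. It lies on chromosome 17 from 33938821 to 33940343 (minus strand), under an annotated antisense RNA, CR974462.1. It ran from 5.18 to 5.52 with acetate (median 5.34) and from 5.09 to 5.34 without (median 5.21), and 9 acetate libraries were above all others. The difference was 0.14 ± 0.027, 1.10-fold. It was 0.24 in KO and 0.021 in WT without antibiotics. Gm1821 is a transcribed pseudogene on chromosome 14 from 46084028 to 46085000 (plus strand) whose transcript is 98.5% identical to that of the ubiquitin gene Ubb over 685 of 685 bases, so reads may have been split between them and its value is uncertain. It ran from 4.14 to 4.70 with acetate (median 4.27) and from 3.9 to 4.30 without (median 4.06). The difference was 0.23 ± 0.045, and it was above 0 in all 4 pairs, between 0.17 and 0.35.

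The 6 lower genes include 3 that encode membrane or matrix proteins. Emp1, an epithelial membrane protein, lies on chromosome 6 from 135362545 to 135383173 (plus strand). It had the largest difference of the 10 genes. It was at 0.88, 0.89, -0.39, 0.87 and 1.13 log2 CPM in WT_acetate and at 0.56 to 1.83 (median 1.53) in WT_control. It was at 0.62, 0.98, 0.11, 1.30 and 0.28 in KO_acetate, against 2.96, 0.80, 1.26 and 1.37 in KO_control. In WT_abx_and_acetate it was at 0.32, 0.20, 0.30 and 0.46, and in WT_abx at 1.78, 1.31, 1.21 and 2.44. That pair alone did not overlap, since KO_abx_and_acetate had 0.26, 0.79, 0.85 and 0.42 and KO_abx had 0.83, 1.77 and 0.97. Emp1 was lower by a mean of 1.87-fold, a difference of -0.90 ± 0.18, and the 4 differences ran from -1.36 to -0.63.

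Tinagl1 encodes a secreted matrix protein and lies on chromosome 4 from 130164454 to 130175122 (minus strand). It ran from 2.22 to 3.18 with acetate (median 2.74) and from 2.45 to 3.92 without (median 3.34), and all 4 pairs overlapped. The difference was -0.54 ± 0.11, 1.46-fold lower. Vasn encodes vasorin, a membrane protein of vascular smooth muscle that binds TGF-beta, and lies on chromosome 16 from 4639941 to 4650802 (plus strand). It ran from 2.95 to 4.04 with acetate (median 3.68) and from 3.56 to 4.61 without (median 4.15). The difference was -0.45 ± 0.091, 1.37-fold lower. The gene lies within Coro7 on the other strand and overlaps Dnaja3, and no source used here says whether the counting took the strand into account.

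Arhgap31 encodes a GTPase-activating protein for the small GTPases Rac1 and Cdc42. It lies on chromosome 16 from 38598340 to 38713274 (minus strand). It ran from 4.86 to 5.61 with acetate (median 5.21) and from 5.19 to 6.06 without (median 5.63), a difference of -0.33 ± 0.068. It differed by 0.0093 and -0.29 in KO and WT with antibiotics, and by -0.60 and -0.46 without them. Sfpq encodes an RNA-binding splicing factor (chromosome 4, 127021324 to 127037013, plus strand). It ran from 6.76 to 7.27 with acetate (median 7.06) and from 7.07 to 7.57 without (median 7.26), and 10 of the 18 acetate libraries were below every other library. The difference was -0.20 ± 0.041. Dnajc1 encodes a J-domain co-chaperone of the endoplasmic reticulum (chromosome 2, 18195654 to 18392830, minus strand) and overlaps Mllt10 on the other strand. It ran from 4.18 to 4.73 with acetate (median 4.52) and from 4.37 to 5.19 without (median 4.81), a difference of -0.26 ± 0.051. Every WT_acetate library was below every WT_control library for Dnajc1, and every KO_acetate library below every KO_control library. The groups on antibiotics overlapped.

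**Figure D1:**
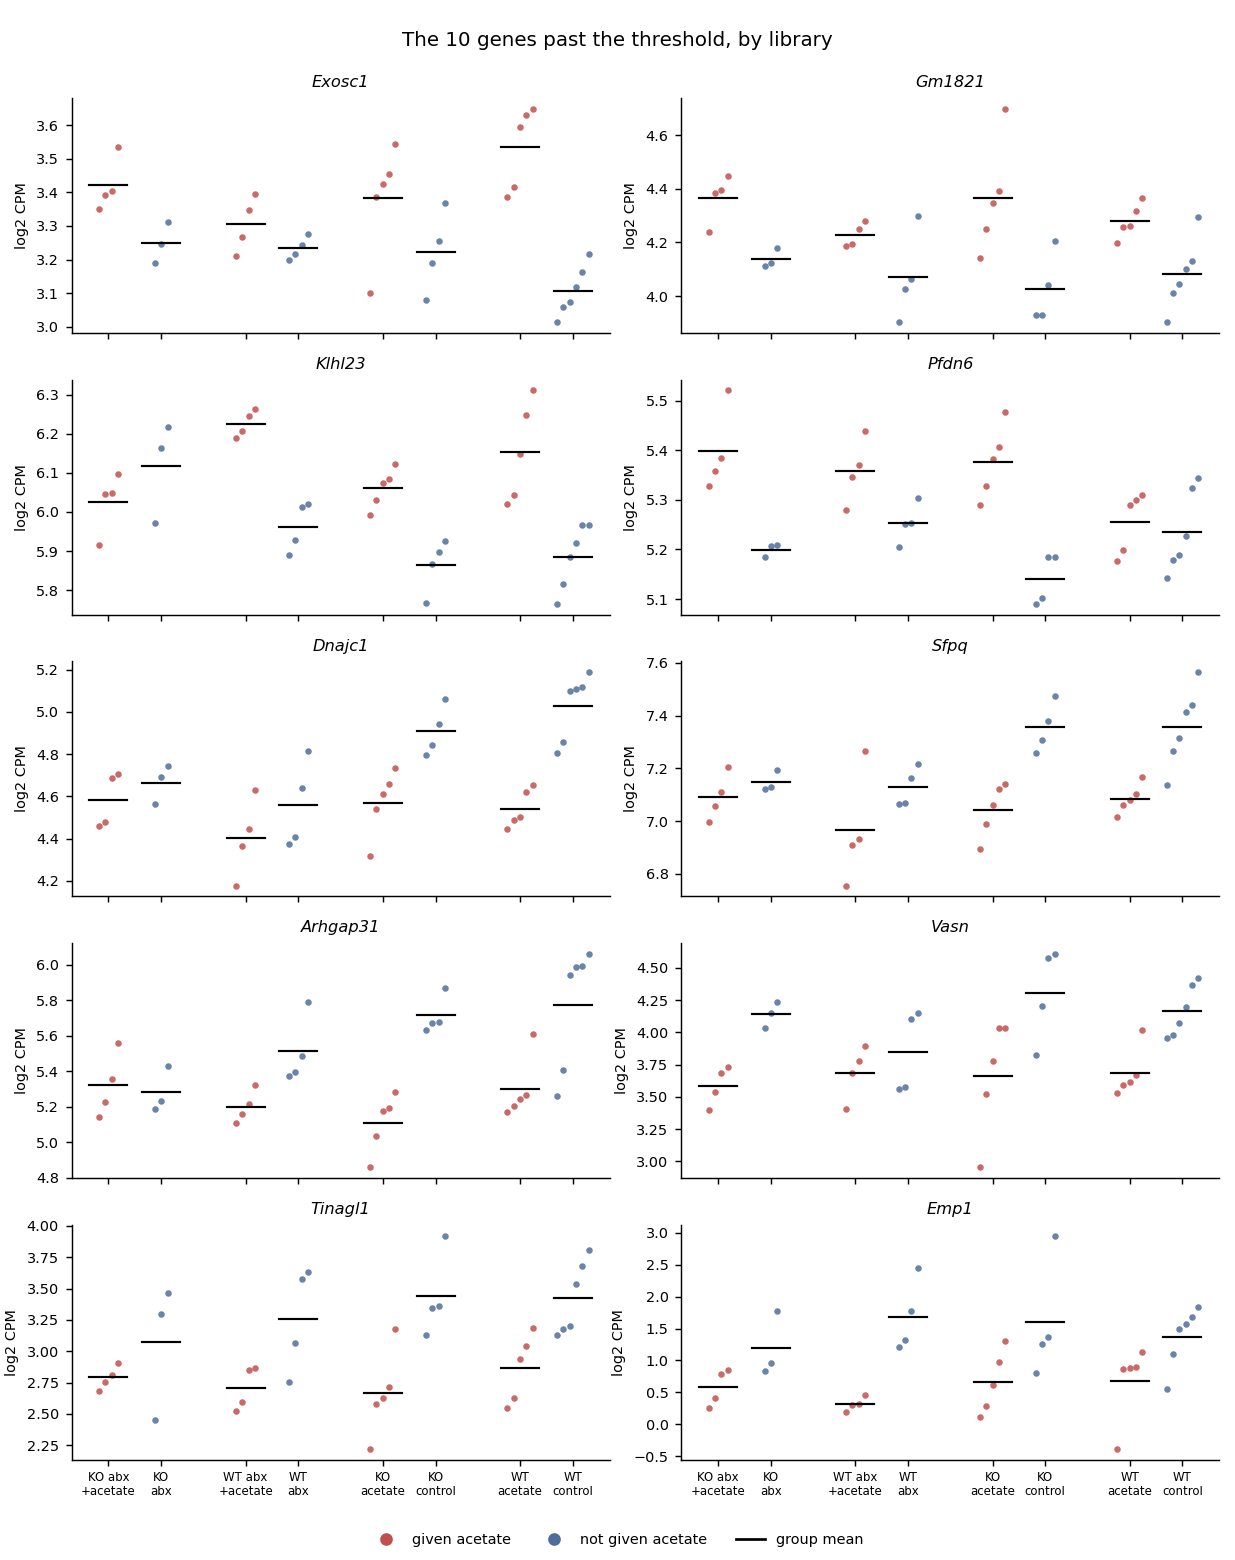
Level of each of the 10 called genes in every library (log2 CPM, vertical axis), with each acetate group left of the group it is set against and a bar at the group mean. The acetate groups sit above their references for Exosc1 and Gm1821 in all 4 pairs and below them for Emp1 in all 4, and the Klhl23 points of the KO groups on antibiotics lie the other way.

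Taken 1 at a time, the difference in KO with antibiotics gave 0 genes (limma, smallest adjusted p = 0.329) and 298 at an unadjusted p under 0.05 (2%: 1.14% higher, 0.868% lower). In WT with antibiotics it gave 0 (smallest adjusted p = 0.23) and 910 unadjusted (6.12%: 3.36% higher, 2.76% lower), and over 32 libraries 0 (smallest adjusted p = 0.941) and 476 unadjusted (3.2%). In KO without antibiotics it gave 0 (smallest adjusted p = 0.146) and 1940 unadjusted (13%: 6.6% higher, 6.44% lower). In WT without antibiotics it gave 1, Exosc1, and 1399 unadjusted (9.41%: 4.57% higher, 4.84% lower). Across genes the 4 differences correlated between r = 0.0131 and r = 0.285. The differences of KO and WT without antibiotics were at r = 0.283. Genes are not independent replicates, and the differences share the fit's sex term. All 4 differences were above 0 in 2015 genes and below 0 in 1983, together 26.9% of genes. Among the 2694 genes with an unadjusted p under 0.05 in the mean, 71.8% had all 4 with the same sign, a share that the choice by p raises.

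**Figure D2:**
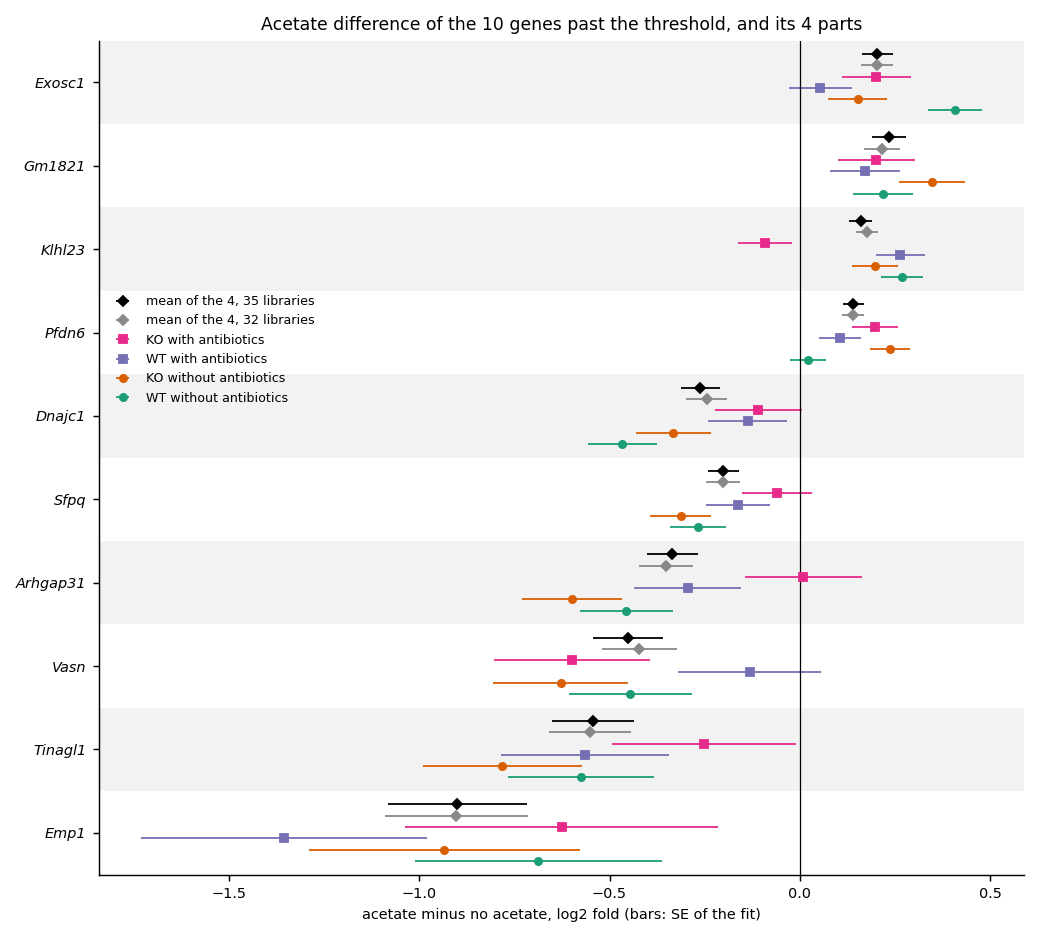
Acetate difference (log2 fold, with its SE) of the 10 called genes, for the mean over 35 and 32 libraries and in each of the 4 backgrounds. Most points of a gene lie on one side of 0, with Klhl23 in KO on antibiotics at -0.092 and Arhgap31 there at 0.0093 as the exceptions.

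Other genes differed in the same direction in all 4 backgrounds without passing the threshold. They were taken as the 6 with the largest weakest difference in each direction, so their sign in the 4 pairs was fixed by the choice. Among those lower were Plekhg4, a guanine nucleotide exchange factor (-0.85 ± 0.18, limma, adjusted p = 0.0598), and Itga10, a collagen-binding integrin chain (-0.88 ± 0.21, adjusted p = 0.0741). Plekhg4 ran from -2.06 to 0.96 with acetate (median 0.097) and from -0.013 to 1.84 without (median 0.84). Etnppl, an astrocyte-rich enzyme that breaks down phosphoethanolamine, was at -0.64 ± 0.17 (adjusted p = 0.0959), and the basement membrane collagen Col4a6 at -0.65 ± 0.18 (adjusted p = 0.100). The matrix gene Svep1 was at -0.61 ± 0.23. Those higher included Tmem40 (0.73 ± 0.20, adjusted p = 0.0952) and Fam181a (0.57 ± 0.15, adjusted p = 0.0836), both at low levels with medians of 1.48 and 0.95 with acetate and 0.81 and 0.38 without. The retinal dehydrogenase relative Aldh1a7 was at 0.55 and the pseudogene Gm6851 at 0.76. The rows Gm21748 and Gm21860, which hold identical values, were also at 0.76. Adjusted p-values of all these rows were 0.197 to 0.329 (limma). Gm21748 and Gm21860 are annotated on chromosome Y but had reads in every library, those labelled female included. Aldh1a7 was at 0.32 without WT_abx 4, at 0.26 over 32 libraries, and at 0.99 in females and 0.0047 in males. The fits of 1 sex left 1 library in some groups.

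Gene lists were then described by how many measured members lay above and below 0. The same over all genes gave a median of -0.000398 with 49.8% above 0. No member of any list passed the adjusted threshold in the mean over backgrounds, so a member named here is given as a value.

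Neither of the enzymes that turn acetate into acetyl-CoA, nor the citrate lyase Acly, which makes it from citrate, differed beyond the spread. Acss2 was at -0.022 ± 0.054 (limma, adjusted p = 0.853), Acss1 at -0.081 ± 0.048 (adjusted p = 0.369) and Acly at 0.014 ± 0.032 (adjusted p = 0.845). These 3 were singled out for their role with their values known. Of 25 genes of acetyl-CoA supply, 15 were above 0 (median 0.041), 5 higher and 2 lower at an unadjusted p under 0.05, against 8.96% and 9.16% of all genes. The smallest p belonged to Acat2, the cytosolic enzyme that joins acetyl-CoA units at the entry to cholesterol synthesis. It averaged 5.55 over the acetate groups and 5.35 over the others, a difference of 0.20 ± 0.047 (adjusted p = 0.0741). Its mitochondrial relative Acat1 was at 0.087 and the pyruvate dehydrogenase subunit Pdhb at 0.090.

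Nuclear genes of oxidative phosphorylation, the chain of complexes that makes ATP in mitochondria, lay above 0 in 78 of 80. Their median was 0.087, and 44 of the 80 were higher at an unadjusted p under 0.05 and 0 lower, beside 8.96% and 9.16% of all genes. The count of 44 was 28 to 59 with 1 library left out, and 28 without KO_abx 1. Over all genes the count at this p also moved in such fits, from 2159 to 3214. Over 32 libraries 79 were above 0 and 39 were higher, beside 7.02% of all genes. Atp5o, a subunit of ATP synthase, ran from 6.67 to 7.04 log2 CPM with acetate (median 6.80) and from 6.52 to 6.81 without (median 6.67), and the groups overlapped in part. It was at 0.14 ± 0.033 (limma, adjusted p = 0.0741). The complex I subunits Ndufs7 and Ndufa9 were at 0.12 ± 0.030 and 0.11 ± 0.030. The list median was 0.13 in KO and -0.012 in WT with antibiotics, and 0.14 in KO and 0.10 in WT without them. The 13 genes that mitochondria encode themselves had a median of 0.027 (0.017 over 32 libraries) and 0 at an unadjusted p under 0.05.

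Of 24 genes of the citric acid cycle, 19 were above 0 (median 0.055). At an unadjusted p under 0.05, 7 were higher and 1 lower, against 8.96% and 9.16% of all genes. The list was led by the malate dehydrogenases Mdh2 (0.090) and Mdh1 (0.11) and the isocitrate dehydrogenase subunit Idh3a (0.10). Of 77 genes of cytosolic ribosomal proteins, 75 were above 0 with a median of 0.053, and 8 were higher at an unadjusted p under 0.05. That count was 3 to 25 with 1 library left out, at 25 without KO_acetate 5, beside 8.96% of all genes with all libraries. Of 32 genes of fatty acid oxidation, 11 were above 0, with the synthetase Acsl3 at -0.15 and the ketone body enzyme Bdh1 at 0.075. Among carriers of monocarboxylates, Slc16a1, which carries lactate across the blood-brain barrier, was at 0.16 ± 0.069 and Slc16a12 at -0.40 ± 0.16. Of 7 receptors for short-chain fatty acids and related ligands, 3 had a row (Hcar1, Ffar1 and Olfr78), with differences of -0.50 ± 0.28, -0.12 ± 0.18 and -0.062 ± 0.21. With 1 library left out Ffar1 ran from -0.25 to -0.032. Olfr78 ran from -0.13 to 0.050 and turned to above 0 without KO_acetate 1, WT_abx 2 or WT_abx_and_acetate 4.

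**Figure D3:**
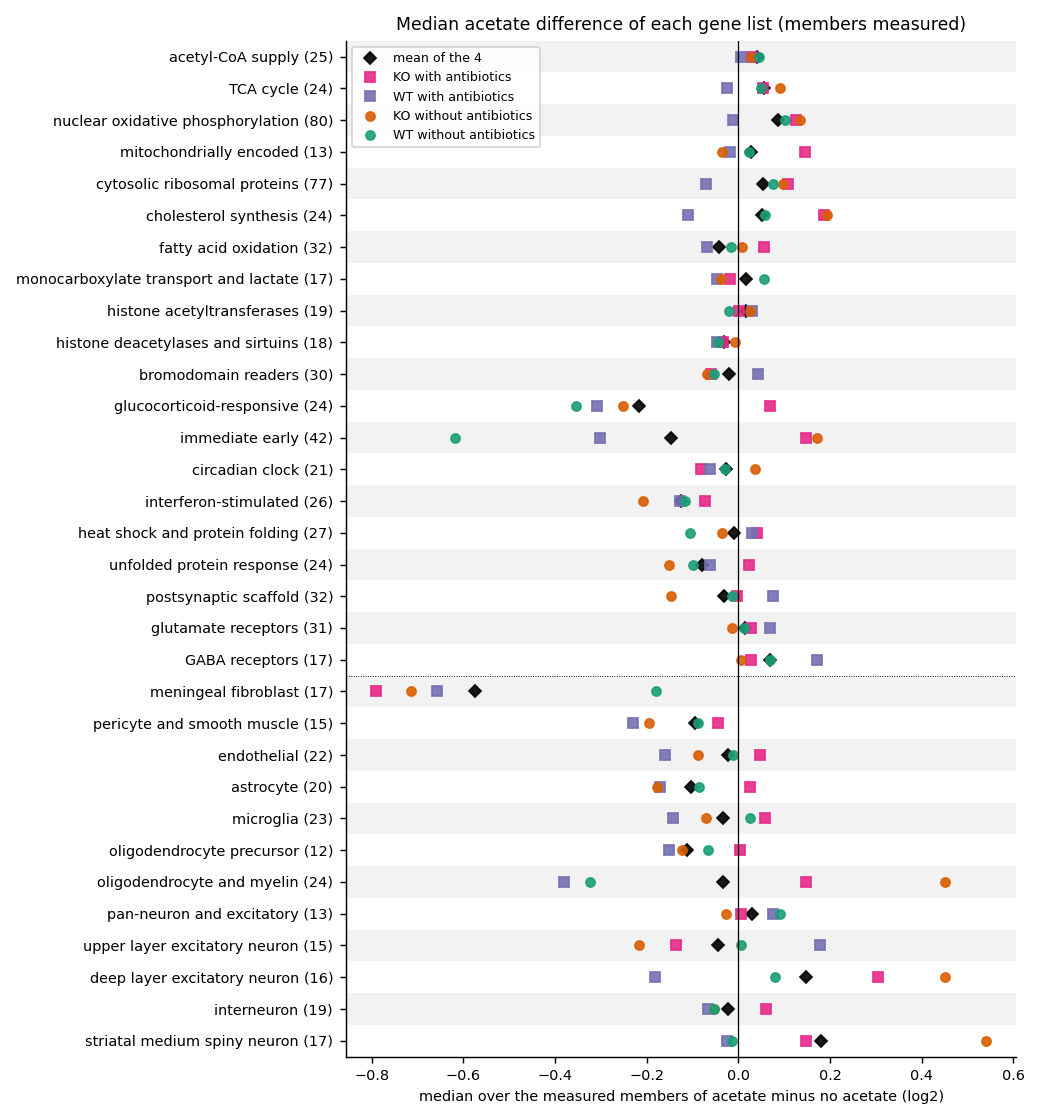
Median acetate difference (log2 CPM) of each gene list on the horizontal axis, for the mean over backgrounds and for each background, with a line at 0. Mitochondrial, ribosomal and cholesterol lists lie right of 0 in the mean and left of 0 in WT on antibiotics, and the meningeal and glucocorticoid lists lie farthest left.

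The median difference went with transcript length. In the fifth of genes with the shortest longest transcript (102 to 2076 bases) the median was 0.037, and in the fifth with the longest (5443 bases and over) it was -0.015. Spearman's correlation across 13612 genes was -0.167, a description over genes that share libraries. It was -0.21 in KO and 0.184 in WT with antibiotics, and -0.207 in KO and -0.217 in WT without them. For the acetate difference with antibiotics minus that without, it was 0.268, and for that in KO minus that in WT, -0.212. The median gene had 3516 bases, the oxidative phosphorylation list 1005 and the ribosomal list 1059. With the length trend of each library taken off, 74 of 77 nuclear oxidative phosphorylation genes were above 0 with a median of 0.051. Of these 77, 18 were higher at an unadjusted p under 0.05. The share of all genes higher in that fit is not given here, so the 18 cannot be weighed against it. Of 76 ribosomal genes, 47 were then above 0 with a median of 0.0069. This setting was added after the data were seen.

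**Figure D4:**
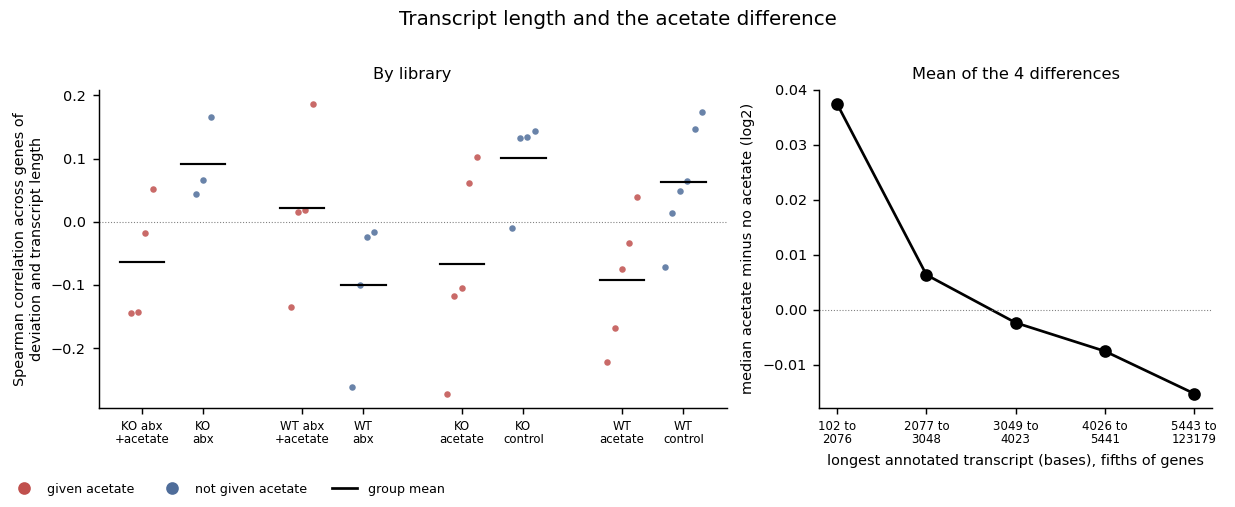
Left, Spearman correlation across genes of each library's deviation with transcript length, each acetate group left of its reference and a bar at the group mean; right, median acetate difference (log2 CPM) for 5 equal bins of length. WT_abx_and_acetate averaged 0.021 and WT_abx -0.101, opposite in order to the other 3 pairs.

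Writers, erasers and readers of histone acetylation had small differences. Of 19 histone acetyltransferases, 14 were above 0 (median 0.017) and 1 was higher at an unadjusted p under 0.05, Elp3, the catalytic subunit of Elongator, at 0.12 ± 0.033 (limma, adjusted p = 0.109). Of 18 deacetylases and sirtuins, 13 were below 0 and 3 were lower, the mitochondrial sirtuin Sirt4 (-0.27), the nucleolar Sirt7 (-0.16) and the cytoplasmic Hdac6 (-0.094). Of 30 bromodomain genes, 21 were below 0 and 6 were lower. The counts of these 3 lists stand beside 8.96% of all genes higher and 9.16% lower at an unadjusted p under 0.05. Zmynd8, which binds acetylated histones, ran from 6.76 to 7.42 with acetate (median 7.04) and from 6.91 to 7.69 without (median 7.34), a difference of -0.23 ± 0.061 (adjusted p = 0.0903). The median transcript of the bromodomain list was 6188 bases, longer than that of all genes.

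Genes that glucocorticoids induce, through a receptor that enters the nucleus once it has bound corticosterone, were below 0 in 24 of 24. The median was -0.22, and 10 of 24 were lower and 0 higher at an unadjusted p under 0.05, beside 9.16% and 8.96% of all genes. The count of 10 was 8 to 18 with 1 library left out, and 18 without KO_control 2. Over all genes 2159 to 3214 had an unadjusted p under 0.05 in such fits. Over 32 libraries 24 of 24 were again below 0, with 9 lower, beside 7.57% of all genes. Gjb6, a gap junction protein of astrocytes, ran from 4.88 to 6.16 log2 CPM with acetate (median 5.66) and from 5.53 to 6.84 without (median 6.0). It was at -0.40 ± 0.10 (limma, adjusted p = 0.0836). Map3k6, a stress kinase, ran from 1.74 to 2.75 with acetate (median 2.26) and from 2.13 to 4.73 without (median 2.71), at -0.55 ± 0.14 (adjusted p = 0.0836). The sulfotransferase Sult1a1 was at -0.52 ± 0.15 (adjusted p = 0.105), the receptor co-chaperone Fkbp5 at -0.26 ± 0.15 (adjusted p = 0.357) and the kinase Sgk1 at -0.087 ± 0.14 (adjusted p = 0.760). Fkbp5 and Sgk1 are named as known targets, after their values were seen.

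The glucocorticoid-responsive list score, a library's mean deviation over members, was -0.32 to -0.18 in WT_acetate (median -0.26) and -0.041 to 0.21 in WT_control (median 0.073), with no overlap. Some other lists also had a pair without overlap, and they are named with the cholesterol list below. It was -0.19 to 0.22 in KO_acetate and -0.21 to 1.34 in KO_control, where KO_control 1 held the highest value. It was -0.26 to 0.24 in WT_abx_and_acetate and -0.086 to 0.27 in WT_abx. In KO_abx_and_acetate it was -0.30 to 0.025 and in KO_abx -0.28 to 0.061, and the list median of that pair was 0.068. Without KO_control 1, 21 of 24 members were below 0 with a median of -0.14, a move of over 1.5 times. Gjb6 is also an astrocyte marker, and 18 of 20 astrocyte markers were below 0 (median -0.10); their part in the result was not tested.

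The 250 bases before the start of 2 of these genes are shown because they hold the sequence that the receptor is known to bind, in capitals (RefSeq, GRCm38.p6). For Sgk1 the window is chr10:21993640-21993889 (plus strand) and the palindrome, AGAACA and TGTTCT with any 3 bases between them, begins 189 bases before the start. For Map3k6 the window is chr4:133240568-133240817 (plus strand) and the shorter form ACANNNTGT, which the palindrome also contains, begins 179 bases before it.
Sgk1: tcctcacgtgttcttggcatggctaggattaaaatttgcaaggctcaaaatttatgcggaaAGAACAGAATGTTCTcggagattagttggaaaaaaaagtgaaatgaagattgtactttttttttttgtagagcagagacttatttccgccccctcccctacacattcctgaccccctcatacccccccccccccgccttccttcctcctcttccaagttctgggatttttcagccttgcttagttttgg
Map3k6: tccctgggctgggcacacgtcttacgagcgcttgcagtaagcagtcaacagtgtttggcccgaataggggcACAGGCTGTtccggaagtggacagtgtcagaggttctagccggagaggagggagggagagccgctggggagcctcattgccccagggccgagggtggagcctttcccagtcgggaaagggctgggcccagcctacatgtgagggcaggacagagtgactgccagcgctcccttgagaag
Both motifs read the same on both strands. Among 32851 starts in the table, 3 held the palindrome (0.00913%) and 1917 the shorter form (5.84%). Counted by gene, with a match at any start, 3 of 27025 genes held the palindrome (0.0111%) and 1828 the shorter form (6.76%). Of 21 list genes with a promoter in the table, 1 held the palindrome (Sgk1) and 5 the shorter form (Sgk1, Mt1, Fam107a, Txnip and Map3k6). A match describes the letters of the window, and Map3k6 and Sgk1 differed with acetate by -0.55 and -0.087.

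Immediate early genes, the first to be transcribed when a neuron is active, were below 0 in 35 of 42 in the mean over backgrounds. Their median was -0.15, with 10 lower and 1 higher at an unadjusted p under 0.05, beside 9.16% and 8.96% of all genes. Without KO_abx 2 or WT_abx 1 the count of 10 was 6. Egr3, a transcription factor, ran from 4.62 to 6.91 with acetate (median 6.35) and from 6.02 to 7.78 without (median 6.60), at -0.47 ± 0.18. The prostaglandin synthase Ptgs2 was at -0.42 ± 0.15 and the adhesion protein Amigo3 at -0.43 ± 0.12 (limma, adjusted p = 0.107). The 4 backgrounds differed in sign. The median was 0.15 in KO and -0.30 in WT with antibiotics, and 0.17 in KO and -0.62 in WT without them.

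The acetate difference in KO minus that in WT was tested for every gene, and 0 passed (limma, smallest adjusted p = 0.854), with 788 at an unadjusted p under 0.05 (5.3%: 2.68% higher, 2.62% lower). Over 32 libraries 1 gene passed, Tmtc1, which encodes a mannosyltransferase of the endoplasmic reticulum, at -0.47 (adjusted p = 0.00888). Over 35 libraries it was at -0.33 (adjusted p = 0.877). All 42 immediate early genes were above 0 in this difference, with a median of 0.57, and 20 were higher at an unadjusted p under 0.05. Over 32 libraries 41 of 42 were above 0 (median 0.57). Nr4a3, an orphan nuclear receptor of this list, had the smallest p, at 1.15 ± 0.31 (adjusted p = 0.854), and was chosen for that. It was at 4.15 to 5.63 in KO_abx_and_acetate and 4.18 to 4.82 in KO_abx, and at 4.60 to 4.72 in WT_abx_and_acetate and 5.01 to 5.65 in WT_abx, where the groups did not overlap. Without antibiotics it was at 4.34 to 5.69 in KO_acetate (median 4.96) and 3.39 to 5.04 in KO_control (median 4.73), and at 3.74 to 5.24 in WT_acetate (median 4.85) and 5.24 to 5.85 in WT_control (median 5.61).

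Genes of cholesterol synthesis, for which cytosolic acetyl-CoA is the starting material, were set out by genotype in the same way. Of 24 genes, 23 were above 0 in the mean over backgrounds, with a median of 0.050. At an unadjusted p under 0.05, 6 were higher, beside 8.96% of all genes. The medians of the backgrounds were 0.19 in KO and -0.11 in WT with antibiotics, and 0.19 in KO and 0.058 in WT without them. In the acetate difference of KO minus WT all 24 genes were above 0 (median 0.24), and 15 of 24 were higher at an unadjusted p under 0.05, beside 2.68% of all genes. Over 32 libraries all 24 were again above 0 (median 0.24). The list score was 0.050 to 0.20 in KO_abx_and_acetate and -0.071 to -0.027 in KO_abx, and -0.11 to -0.017 in WT_abx_and_acetate and 0.030 to 0.085 in WT_abx. Neither pair overlapped, with the acetate group above in KO and below in WT. Beside these and the glucocorticoid-responsive list, scores of other lists also did not overlap in a pair. They were immediate early genes in WT and the citric acid cycle in KO without antibiotics, and bromodomain genes in KO and GABA receptors in WT with antibiotics. Groups this small can separate by the spread among libraries alone, so lack of overlap is a description.

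Idi1, an isomerase of the isoprenoid steps, had the smallest p of this list in that difference, at 0.47 ± 0.12 (limma, adjusted p = 0.854), and was chosen for that. It was at 5.73 to 6.08 in KO_abx_and_acetate and 5.2 to 5.62 in KO_abx, and at 5.38 to 5.76 in WT_abx_and_acetate and 5.77 to 6.18 in WT_abx. Neither of these pairs overlapped. Without antibiotics it was at 5.59 to 6.02 in KO_acetate (median 5.72) and 5.32 to 5.84 in KO_control (median 5.53), and at 5.55 to 5.84 in WT_acetate (median 5.57) and 5.47 to 5.91 in WT_control (median 5.66). Fdps, the farnesyl diphosphate synthase, was at 0.18 ± 0.043 in the mean over backgrounds (adjusted p = 0.0806), with 0.33 and -0.10 in KO and WT with antibiotics and 0.30 and 0.19 without them. By label KO_abx_and_acetate had 1 male and 3 females and WT_abx_and_acetate 3 males and 1 female. In the acetate difference of labelled females minus males, 19 of the 24 cholesterol genes were above 0 (median 0.095). At an unadjusted p under 0.05, 4 were higher and 0 lower, beside 3.66% and 3.64% of all genes. The part of the sex imbalance in the result by genotype was not tested.

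The acetate difference with antibiotics minus that without gave 0 genes (limma, smallest adjusted p = 1) and 551 at an unadjusted p under 0.05 (3.71%: 2.16% higher, 1.55% lower). In it, 69 of 80 nuclear oxidative phosphorylation genes were below 0 (median -0.063) with 2 lower, and 71 of 77 ribosomal genes (median -0.060) with 1 lower, against 1.55% of all genes. Over 32 libraries the ribosomal median was -0.0094, with 33 genes above and 44 below 0. Across 13612 genes this difference correlated with transcript length at 0.268 (Spearman, 35 libraries). Both lists have short transcripts, with medians of 1005 and 1059 bases against 3516, and the part of length here was not tested. The glucocorticoid-responsive list had 22 of 24 above 0 (median 0.17) with 3 higher.

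**Figure D5:**
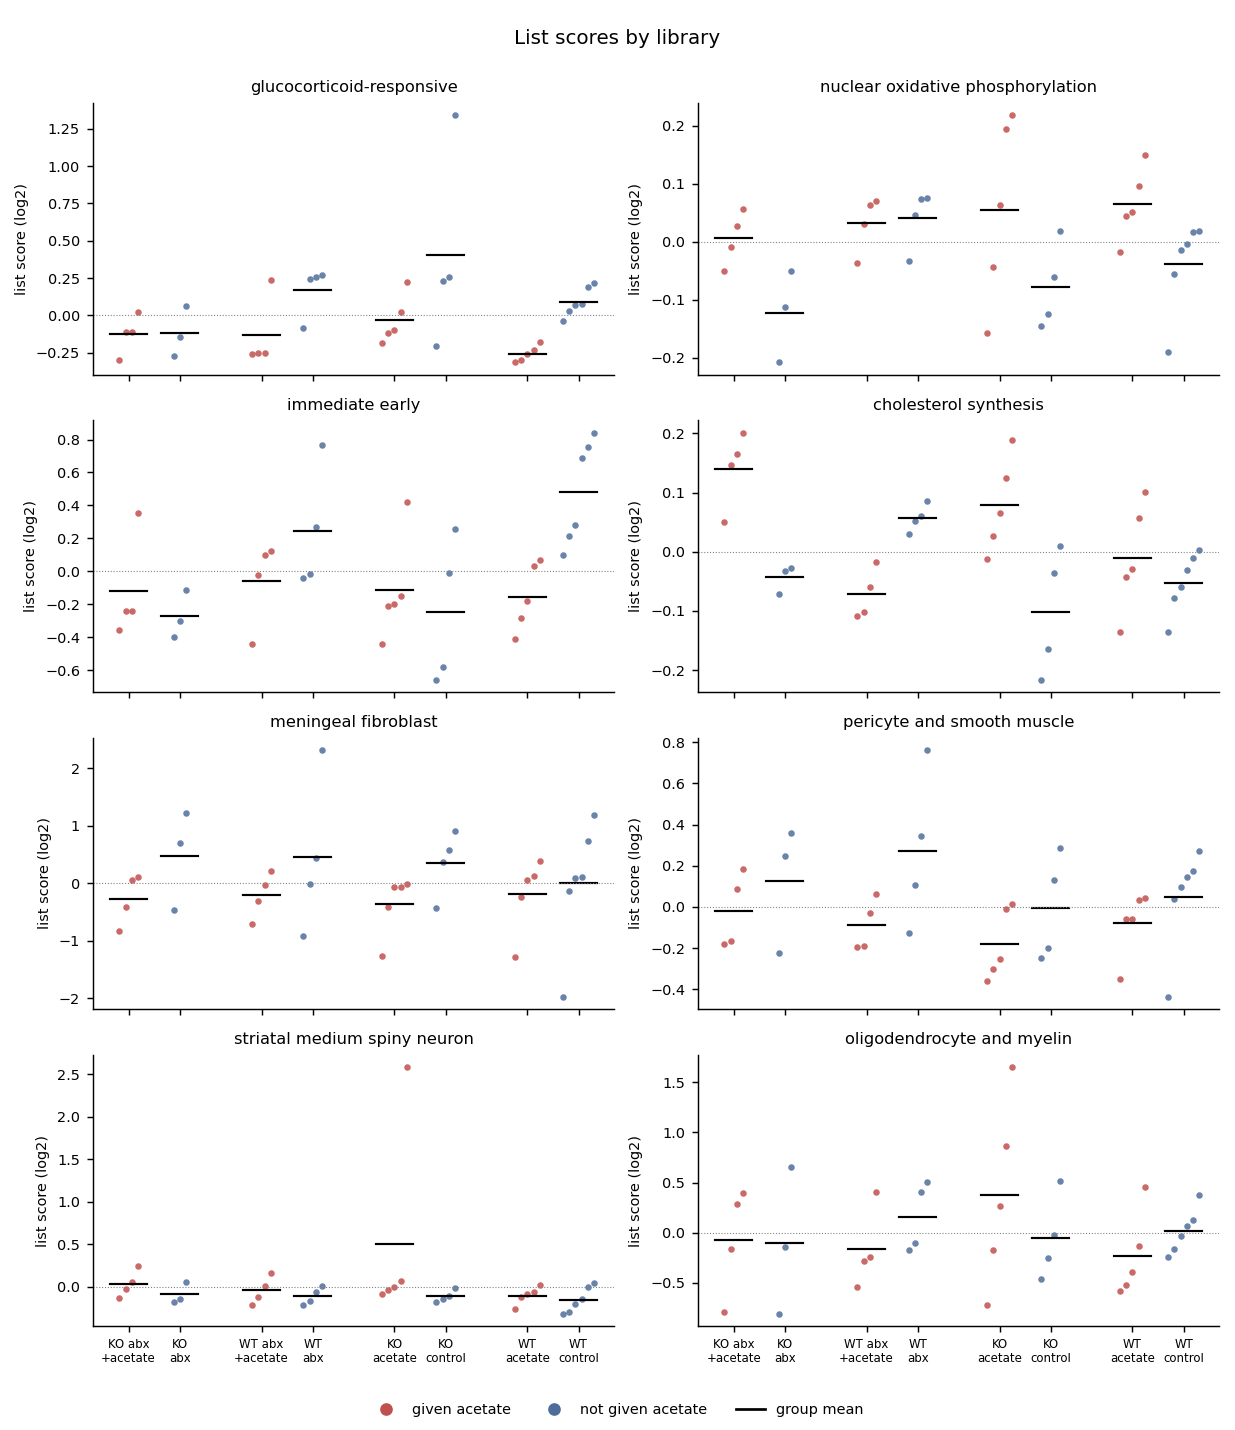
List score of every library (mean deviation over members, log2 CPM), with each acetate group left of the group it is set against and a bar at the group mean. The glucocorticoid scores of WT_acetate all lie below those of WT_control, the cholesterol scores of the antibiotic pairs do not overlap, and the striatal score of KO_acetate 1, at 2.58, stands apart.

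The labelled sexes were also set against each other, an analysis added after the data were seen. The acetate difference in females minus that in males gave 0 genes (limma, smallest adjusted p = 0.534) and 1086 at an unadjusted p under 0.05 (7.3%: 3.66% higher, 3.64% lower). Of 42 immediate early genes, 39 were below 0 in it (median -0.73) and 27 were lower. Their median acetate difference was -0.53 in females and 0.12 in males. The arms differed in genotype, with 5 KO and 2 WT among the acetate females and 3 KO and 5 WT among the other females. The scores are therefore given within genotype, with libraries on and off antibiotics pooled. Of the KO females, 3 with acetate and 1 without were on antibiotics, and 2 in each arm were not. In KO females the score was -0.353 to -0.15 with acetate and -0.112 to 0.255 without. In WT females it was -0.439 to -0.283 in 2 with acetate and -0.0389 to 0.841 in 5 without, and neither genotype overlapped. In KO males it was -0.443 to 0.423 in 4 with acetate and -0.656 to -0.298 in 4 without. In WT males it was -0.408 to 0.126 in 7 with acetate and -0.0184 to 0.766 in 5 without, and both genotypes overlapped. The 2 WT females with acetate were WT_acetate 5, with a doubtful label, and WT_abx_and_acetate 4, the shallowest library. WT_abx 3 and WT_abx 4, among the WT females without, also had doubtful labels, as did WT_acetate 2 and WT_acetate 4 among the WT males. These scores were not recomputed without them, so the lack of overlap in WT females rests on few libraries. Arc, a synaptic immediate early gene chosen among the 3 with the smallest p, was at 7.0 to 7.79 in acetate females (median 7.31) and 7.73 to 9.62 in the others (median 8.64), and at 6.27 to 8.84 in acetate males (median 8.21) and 5.58 to 9.61 in the others (median 7.81). Arc's difference between the sexes was -1.73 ± 0.49 (adjusted p = 0.534). All 24 oligodendrocyte markers were below 0 in the same difference (median -0.54), with 2 lower. So were 26 of 27 heat shock and folding genes, with 7 lower. The median acetate difference of the heat shock list was -0.14 in females and 0.060 in males. Of 24 genes of the unfolded protein response, 23 were below 0 between the sexes, with 1 lower. Leaving out the 5 libraries with doubtful labels gave 0 genes again, 39 of 42 immediate early genes below 0 and a median of -0.89.

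Lists of stress and defence genes had most members below 0, with counts of lower genes at an unadjusted p under 0.05 that stand beside 9.16% of all genes. Of 26 interferon-stimulated genes, 24 were below 0 (median -0.13, and -0.067 without KO_abx 1 or -0.083 without WT_abx 4) and 3 were lower, with the transcription factor Irf9 at -0.27 ± 0.075 (limma, adjusted p = 0.100) and the antiviral GTPase Mx1 at -0.48 ± 0.14. Of 27 heat shock and folding genes, 17 were below 0 and 5 were lower. Their median was -0.0093, at 0.0031 without KO_control 4 and at -0.042 over 32 libraries. Leading this list were the small heat shock proteins Hspb8 (-0.37 ± 0.10) and Hspb1 (-0.51 ± 0.15). Of 24 genes of the unfolded protein response, 17 were below 0 and 4 were lower, with 12 lower without KO_control 1 and 7 over 32 libraries. Of all genes, 7.57% were lower over 32 libraries. The chaperone Hspa5 was at -0.25 ± 0.094 and the sensor Ern1 at -0.16 ± 0.057, while asparagine synthetase, Asns, was at 0.13 ± 0.044. Of 21 clock genes, 15 were below 0 (12 over 32 libraries) and 2 were lower, Npas2 (-0.17) and Per1 (-0.23).

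Of the synaptic lists, GABA receptors and their anchors were above 0 in 15 of 17 (median 0.070, and 0.046 over 32 libraries), with 3 higher. At an unadjusted p under 0.05, 8.96% of all genes were higher and 9.16% lower. Gabra5, a subunit of extrasynaptic receptors, ran from 5.73 to 6.33 with acetate (median 6.05) and from 5.34 to 6.17 without (median 5.78), at 0.25 ± 0.075 (limma, adjusted p = 0.121). The anchor Gphn was at 0.087. Glutamate receptors were above 0 in 20 of 31 (15 of 31 over 32 libraries) with 0 at an unadjusted p under 0.05, beside 18.1% of all genes. Postsynaptic scaffolds were below 0 in 23 of 32 (median -0.032, and -0.049 over 32 libraries), with 1 higher, Camk2b (0.14), and 2 lower, Shank3 and Homer1 (-0.30). Among receptors for dopamine, serotonin and oxytocin, Htr1a was at 0.26 ± 0.072 and Htr5b at -0.56 ± 0.21.

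Shank3 itself was at -0.21 ± 0.089 (limma, adjusted p = 0.209), a mean over KO groups at low and WT groups at high levels. Shank1 was at -0.072 and Shank2 at -0.11. Acr, the gene beside Shank3 that stood between the KO and WT levels in the same 3 libraries, was at 0.16 ± 0.35, and at 0.047 without them.

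Markers of other cells are given beside these results. Their counts of lower genes stand beside 9.16% of all genes lower at an unadjusted p under 0.05. Of 17 markers of meningeal fibroblasts, cells of the membranes over the cortex, 17 were below 0 (median -0.57), and 8 were lower at an unadjusted p under 0.05 (5 to 15 with 1 library left out, with 5 without KO_abx 1, 15 without WT_abx 2 and 15 without WT_control 5). The proteoglycan Dcn ran from 1.11 to 3.22 with acetate (median 2.64) and from 1.11 to 5.25 without (median 3.08), and Lum was at -0.65 ± 0.23. The summed level of the meningeal list overlapped in all 4 pairs, with scores of -1.29 to 0.39 in WT_acetate and -1.98 to 1.19 in WT_control. WT_abx 4 had the highest score, 2.32, and without it the median was -0.45. Of 15 pericyte and smooth muscle markers, 12 were below 0 and 6 were lower, such as Acta2 (-0.54 ± 0.20) and Tagln (-0.53 ± 0.20). Of 22 endothelial markers, 14 were below 0 (11 below and 11 above over 32 libraries) and 6 were lower, such as Ly6c1 (-0.32 ± 0.078). These vascular and meningeal values stand beside those of Vasn, Tinagl1, Emp1, Col4a6 and Svep1, and their part in those results was not tested.

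Striatal medium spiny neuron markers were above 0 in 16 of 17 (median 0.18) with 0 at an unadjusted p under 0.05, and the median was 0.057 without KO_acetate 1. Deep-layer markers were above 0 in 12 of 16 (median 0.15), with the transcription factors Bcl11b (0.25) and Tbr1 (0.13) higher at an unadjusted p under 0.05, and 0 over 32 libraries. Upper-layer markers were above 0 in 6 of 15. The neuronal tubulin Tubb3 was at 0.15 ± 0.037 (limma, adjusted p = 0.0836). Oligodendrocyte markers were below 0 in 21 of 24 with a median of -0.034, at 0.15 and -0.38 in KO and WT with antibiotics and 0.45 and -0.32 without them. This direction did not hold over 32 libraries, with 14 above and 10 below 0 (median 0.010). With 1 library left out the median ran from -0.13 without KO_abx 1 to 0.088 without KO_abx 3, and all 24 were below 0 without KO_acetate 1. Microglia markers were below 0 in 16 of 23 with 0 at an unadjusted p under 0.05 (3 lower over 32 libraries). Markers of oligodendrocyte precursors were below 0 in 9 of 12 with 4 lower. Of all genes, 8.96% were higher and 9.16% lower at this p, and 7.57% were lower over 32 libraries. The defining markers of cortical neurons were high in every group, with Slc17a7 at 10.9 over acetate groups and 10.8 over the others.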

How the data were processed

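Bulk RNA-seq of mPFC punches was deposited by the authors as 1 matrix of log2 CPM for 14870 genes in 35 columns. Titles matched every column to its sample, and 0 columns were left unused. Per the submitters' processing notes limma was used, with no version. Undoing voom's formula, with its offset of 0.5 read, turned 100% of the values into whole reads (tolerance 0.01) and gave the depths. The log2 CPM of a gene with 0 reads was -5.83 to -4.67, depending on depth, and 851 genes had a mean below 0. Not given in the sources used here are the aligner, the counter, its use of strand, the genome build and any gene filter. Per the labels' protocols the libraries mark strand and were read as paired ends.

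The deposited log2 values of all genes entered limma (version 3.58.1, under R 4.3.3) unfiltered and with no pseudocount added, with 8 group means, labelled sex and a prior variance that follows the mean. P-values were 2-sided, Benjamini-Hochberg adjusted over all genes, with a threshold of 0.05. The 4 differences, their mean, and the differences by antibiotics, genotype and sex came from such fits. Depth limits low genes most. Errors are SE of the fit. The mean over pairs gives a library of a small group more weight.

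The members and lists were chosen with earlier results of these data known. Named genes are those past the threshold, the 6 in each direction whose weakest of the 4 differences is largest (mean of at least 0), the 3 members of each list with the smallest p, and Shank1, Shank2, Shank3 and Acr. Genes outside this rule are marked where they appear. Replicate numbers follow sample order and pair nothing. No 2 libraries of the same group agreed within sampling noise (smallest chi-square per gene 7.07). Pairs across groups were not compared. The fit was tested on simulated data. Symbols were matched to GENCODE vM21 (14427 of them, 97%).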

Additional observations from a re-analysis of the deposited data

Results flagged for a closer look

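Single libraries far from the rest of their group were looked for in 231 sets of values, each a gene or list in a group of 4 to 10, and 23 were found. Chance gives about 1 in 20 sets.

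Among the called genes, Arhgap31 was at 5.61 log2 CPM in the library labelled WT_acetate 2, against 5.17 to 5.27 in the other WT_acetate libraries. Vasn was at 4.02 in the library labelled WT_acetate 4, against 3.53 to 3.67. Emp1 was at -0.387 in WT_acetate 3, against 0.873 to 1.13.

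Among the genes chosen for their 4 differences, Etnppl was at 2.77 in KO_acetate 1, 3.11 in the library labelled WT_acetate 2 and 4.81 in WT_abx 1, each below the rest of its group. Plekhg4 was at 0.929 in KO_abx_and_acetate 2, against -0.618 to -0.399, and at -2.06 in WT_abx_and_acetate 1. Svep1 was at 1.93 and Gm6851 at -5.46 in WT_control 4, and Col4a6 at -0.267 in WT_control 5. Tmem40 was at -0.573 in WT_acetate 3. Aldh1a7 was at -3.73 in the library labelled WT_abx 4, -1.18 in WT_acetate 3 and 0.799 in KO_control 2.

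Among list scores, the striatal score was 2.58 in KO_acetate 1, against -0.0886 to 0.0721 in the other KO_acetate libraries. The glucocorticoid-responsive score was 0.237 in WT_abx_and_acetate 4, the shallowest library, against -0.256 to -0.253, and -0.0861 in WT_abx 2. The immediate early score was 0.354 in KO_abx_and_acetate 1, the 1 male of that group, against -0.353 to -0.239. The oxidative phosphorylation score was -0.191 in WT_control 2 and the astrocyte score -0.159 in KO_control 2. The pericyte and smooth muscle score was -0.35 in WT_acetate 3 and -0.437 in WT_control 5.

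The acetate difference of Tmtc1 in KO minus that in WT passed the test of the difference itself over 32 libraries, at -0.473.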

How the results depend on the processing

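Each setting was changed alone. The main count of 10 genes was 11 with quantile normalization, 12 without the sex term, and 10 with a filter at a mean of 0, a robust prior or a prior of 2 reads. It was 0 with libraries centred on their median (smallest adjusted p = 0.0531), with RIN as a covariate (0.0643), with no mean-variance trend (0.0565), with voom weights (0.06) and without the 5 libraries with doubtful labels (0.0681). It was 1 without 3 libraries, 70 with acetate as 1 additive term (31 higher, 39 lower) and 182 with library weights (72 higher, 110 lower). The fit of females only left 1 library in WT_acetate, KO_abx and WT_abx_and_acetate. That of males only left 1 in KO_abx_and_acetate, so no count is given for either. Leaving out 1 library gave 0 to 168 genes: 168 without WT_abx_and_acetate 4, 44 without KO_control 3, 42 without WT_abx 3, 33 without KO_acetate 5, 23 without KO_abx_and_acetate 2, 17 without WT_abx 2, 16 without WT_acetate 3, 5 without WT_control 1, 4 without WT_acetate 5, 3 without KO_acetate 3, 1 without KO_abx 3, 11 without WT_control 3, 9 without KO_control 2, 8 without KO_abx_and_acetate 1, 7 without KO_acetate 1, and 0 in 20 fits. The cause was not tested. Over 32 libraries the count of 1 was 0 when centred and 0 to 32 with 1 library left out. WT without antibiotics (1 gene) gave 2 with a filter at a mean of 0, 7 without the sex term and 0 to 14 with 1 library left out. The 0 of KO without antibiotics and of WT with antibiotics became 0 to 1 in such fits, the 0 by genotype became 1 without 3 libraries, and the other 0 counts did not move.

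Of 130 named genes, 14 changed sign in at least 1 fit, and 0 of these had passed the threshold. Of the 14, 11 did so in fits of 1 sex only, such as Slc16a1 (-0.023), Gphn (-0.0071) and Ffar1 (0.34) in females, and Acr (-0.0042 without WT_acetate 2), mt-Co2 (-0.027 with quantile normalization) and Olfr78 in other fits. Over genes and settings, 321 values lost and 54 gained the threshold, and the rest kept their side. No paired analysis was possible because replicate numbers only follow sample order. The planned count tests with edgeR and DESeq2 were not run, since the deposited values are log2. With 18 and 17 libraries and a median size of difference of 0.062, small effects were near what the spread allows.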
